A study of Mus musculus with 9 samples.

Results

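The 9 genes described here belong to aldosterone-sensitive salt transport and were followed in mouse colon, out of 54491 genes in the deposited expression table. They are the 3 subunits of the epithelial sodium channel (Scnn1a, Scnn1b and Scnn1g), the colonic potassium pump Atp12a, the sodium pump subunit Atp1b1, the mineralocorticoid receptor Nr3c2, its guard enzyme Hsd11b2, the kinase Sgk1 and the ubiquitin ligase Nedd4l. All 9 were matched by gene symbol. They were chosen by pathway with the levels in these same libraries, and the differences between all 3 groups, known, so their differences between groups are given as a description, with counts at the thresholds used for all genes but no p-value for any of the 9. Tests are given for 86 other genes of the same transport pathway. Their lists were also chosen with earlier results of these data known, so those p-values carry that choice.

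The libraries are from colon RNA of C57BL/6 mice at postnatal day 98. A control group, a high-fat diet (HFD) group and a group on the high-fat diet that was also gavaged with the gut bacterium Papillibacter cinnamivorans (called the gavage group here) are each represented by 3 libraries. The control libraries are numbered 1, 2 and 3, the HFD libraries 1, 2 and 4, and the gavage libraries 1, 3 and 4. The study divided 45 mice into 3 groups of 15 at 6 weeks of age. The makeup and length of the diet, the dose of bacteria, whether the control and HFD groups received a gavage of their own, the stretch of colon sampled and the mice behind each library are not stated in the labels. The bacterium and the gavage procedure therefore cannot be told apart. Every HFD comparison below uses the same 3 HFD libraries, so a level peculiar to them appears in both the HFD-to-control and the gavage-to-HFD difference, with opposite signs.

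In the colon, sodium enters surface cells either through the electrogenic epithelial sodium channel or through electroneutral sodium-proton exchangers, and the basolateral sodium pump carries it on into the blood. Aldosterone binds the mineralocorticoid receptor, and in rodent distal colon it is known mainly for raising the beta and gamma subunits of the channel. Sgk1 phosphorylates Nedd4l, which otherwise tags the channel for removal from the membrane, and Hsd11b2 inactivates corticosterone so that aldosterone can reach the receptor. Atp12a recovers potassium from the lumen in exchange for protons.

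Levels are in FPKM, sequenced fragments normalised for transcript length and for the size of the library. They are relative to each library's total, so comparisons between libraries depend on what else those libraries contain. Scaling every library to the same summed FPKM (TPM scaling) moved the median HFD minus control difference of the genes tested from -0.001 to 0.218. More genes then reached the level needed for testing, 21123 against 17907, so these medians are over different sets of genes. Sequencing depth is not stated, but the whole-number ratios among the lowest values put the 9 libraries within a 1.34-fold range of relative depth. Epithelial markers were present in every library: the summed level of 10 pan-epithelial genes, such as Epcam and Krt8, was 4249 to 8788 FPKM, with 4477 to 5292 in the HFD libraries. None of the 10 was highest in all HFD libraries and 2 of 10 were lowest there: Krt20, a keratin of mature surface cells, was at 184 ± 21.8 FPKM in HFD and 903 ± 157 in the controls, and Vil1, which encodes the brush border protein villin, at 116 ± 5.11 and 218 ± 49.9 (SD, n = 3). The libraries also differed in genes that mark position along the gut. The 14 posterior Hox and Evx genes examined summed to 283.5 to 304.6 FPKM in the HFD libraries, against 12.2 to 73.6 in the controls and 27.0 to 34.8 in the gavage group. Within that list 7 of 14 genes were higher in all HFD libraries than in the other 6, and Hoxc12 and Hoxc13 were at 0 in every library. Hoxa11 was lower in all HFD libraries, at 1.648 to 1.975 FPKM against 2.282 to 12.01 in the other 6. Hoxc10 and Hoxc11 were at 0 in HFD and in control replicate 1, and reached 0.6229 and 0.3941 FPKM elsewhere. Evx1 was highest in control replicate 1, at 1.737 FPKM. Hoxb2 to Hoxb8, expressed further forward, ran opposite to the posterior sum, and 7 of 7 were lowest in HFD. Their sums were 4.64 to 5.51, 25.6 to 131.0 and 62.8 to 100.2 FPKM in the HFD, control and gavage libraries. The 10 B and plasma cell genes examined summed to 1003 to 1265 FPKM in HFD and to 172.8 to 512.8 elsewhere, 8 of 10 being higher in all HFD libraries. Control replicate 1 stood apart from its group: its 8 smooth muscle genes summed to 6872 FPKM, against 1305 to 3196 in the other libraries, and its posterior and forward Hox sums were 73.6 and 25.6 FPKM. The part of these markers in the differences described below was not tested. In bulk tissue, fewer cells of a type and less RNA per cell cannot be told apart.

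The 3 channel subunits were far from equal in level. The alpha subunit Scnn1a (ENSMUSG00000030340), which forms the core of the pore and is needed for any current, was the most abundant in every library. It was measured at 21.3, 12.8 and 17.8 FPKM in the controls, at 22.7, 18.7 and 22.1 in HFD, and at 11.3, 15.7 and 9.13 in the gavage group. The HFD libraries lay above all 3 gavage libraries and overlapped the controls. Group means were 17.3 ± 4.28, 21.2 ± 2.15 and 12.03 ± 3.34 FPKM (SD, n = 3 each). On the log2(FPKM + 1) scale HFD exceeded control by 0.30 (SE 0.22), with a 95% interval of -0.21 to 0.81 that includes no difference, and the gavage group was 0.80 below HFD (difference -0.80, SE 0.22, interval -1.30 to -0.29). Intervals here and below are per gene and not adjusted for the number of genes tested. Neither Scnn1a difference passed the adjusted threshold used for all genes.

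The beta subunit Scnn1b (ENSMUSG00000030873) and the gamma subunit Scnn1g (ENSMUSG00000000216), which bring the channel to the membrane in numbers, are neighbouring protein-coding genes on chromosome 7. Their promoters are shown because the pair is adjacent yet the 2 levels behaved differently. Each stretch is the 250 bases before the RefSeq start, on the plus strand of GRCm38.p6, with capitals marking GC boxes (GGGCGG on either strand).
Scnn1b, chr7:121864788-121865037: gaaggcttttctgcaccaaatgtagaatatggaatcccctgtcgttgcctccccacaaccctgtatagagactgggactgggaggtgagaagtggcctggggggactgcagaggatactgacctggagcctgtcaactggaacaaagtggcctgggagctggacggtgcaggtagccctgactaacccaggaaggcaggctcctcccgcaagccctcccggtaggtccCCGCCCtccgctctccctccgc
Scnn1g, chr7:121734229-121734478: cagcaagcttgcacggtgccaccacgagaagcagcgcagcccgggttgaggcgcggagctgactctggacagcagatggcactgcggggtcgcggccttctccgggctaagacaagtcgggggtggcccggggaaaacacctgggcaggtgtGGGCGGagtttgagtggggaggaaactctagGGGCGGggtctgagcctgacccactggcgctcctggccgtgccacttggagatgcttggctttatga
Scnn1b carries 1 GC box, 22 to 17 bases before the start, and Scnn1g carries 2, at 98 to 93 and 67 to 62 bases before it. A GC box is present in 32.7% of all 32851 promoter windows of this length. Both stretches are GC-rich, at 60.8% and 65.2% against a median of 52.4%. Neither holds the half-site of the corticosteroid response element, AGAACA on either strand, which was found in 16.1% of all windows. Neither has a TATA box, spelled TATAAA, which was found in 12.4%.

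Scnn1b was low throughout. It was measured at 1.05, 0.977 and 1.46 FPKM in the controls, at 2.53, 2.03 and 1.43 in HFD, and at 0.815, 1.19 and 1.30 in the gavage group. HFD replicates 1 and 2 were above every other library, but HFD replicate 4 lay inside the control range, so HFD and control overlapped while HFD and gavage did not. The HFD mean was 1.999 ± 0.551 FPKM against 1.16 ± 0.258 in controls and 1.10 ± 0.252 in the gavage group (SD, n = 3). The differences on the log2(FPKM + 1) scale were 0.46 (SE 0.17, interval 0.07 to 0.86) for HFD minus control and -0.51 (SE 0.17, interval -0.90 to -0.11) for gavage minus HFD. Neither passed the adjusted threshold used for all genes.

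Scnn1g was detected at an appreciable level in the HFD libraries alone. Its level was 1.32, 2.26 and 1.47 FPKM there, against 0, 0.176 and 0.0221 in the controls, and it was listed at 0 in all 3 gavage libraries. The HFD libraries did not overlap the rest. In units of the smallest value step of each library the gene stood at 74, 121 and 77 in HFD and at 0, 8 and 1 in the controls; these numbers are proportional to fragments, with a shared factor that is unknown. Scnn1g passed the filter on low values only through the HFD libraries and therefore had to differ: its log2(FPKM + 1) differences, 1.32 (SE 0.16) for HFD minus control and -1.41 (SE 0.16) for gavage minus HFD, are given for completeness. They rest on the pseudocount, and with 0.1 FPKM in place of 1 they were 3.53 and -4.12.

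The makeup of the summed subunit message shifted accordingly. Scnn1a accounted for 91.8% to 95.3% of the summed FPKM of the 3 subunits in the controls, for 81.4% to 88.4% in HFD, and for 87.6% to 93.3% in the gavage group. Scnn1g supplied 4.96% to 9.79% in HFD and at most 1.26% elsewhere. In the HFD libraries beta and gamma were close in level, with a beta-to-gamma ratio of 1.92, 0.901 and 0.974, while alpha exceeded beta 7.04-fold to 20.3-fold over the 9 libraries. The summed level of the channel was 18.6 ± 4.25, 24.9 ± 1.78 and 13.1 ± 3.34 FPKM in control, HFD and gavage (SD, n = 3).

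**Figure D1:**
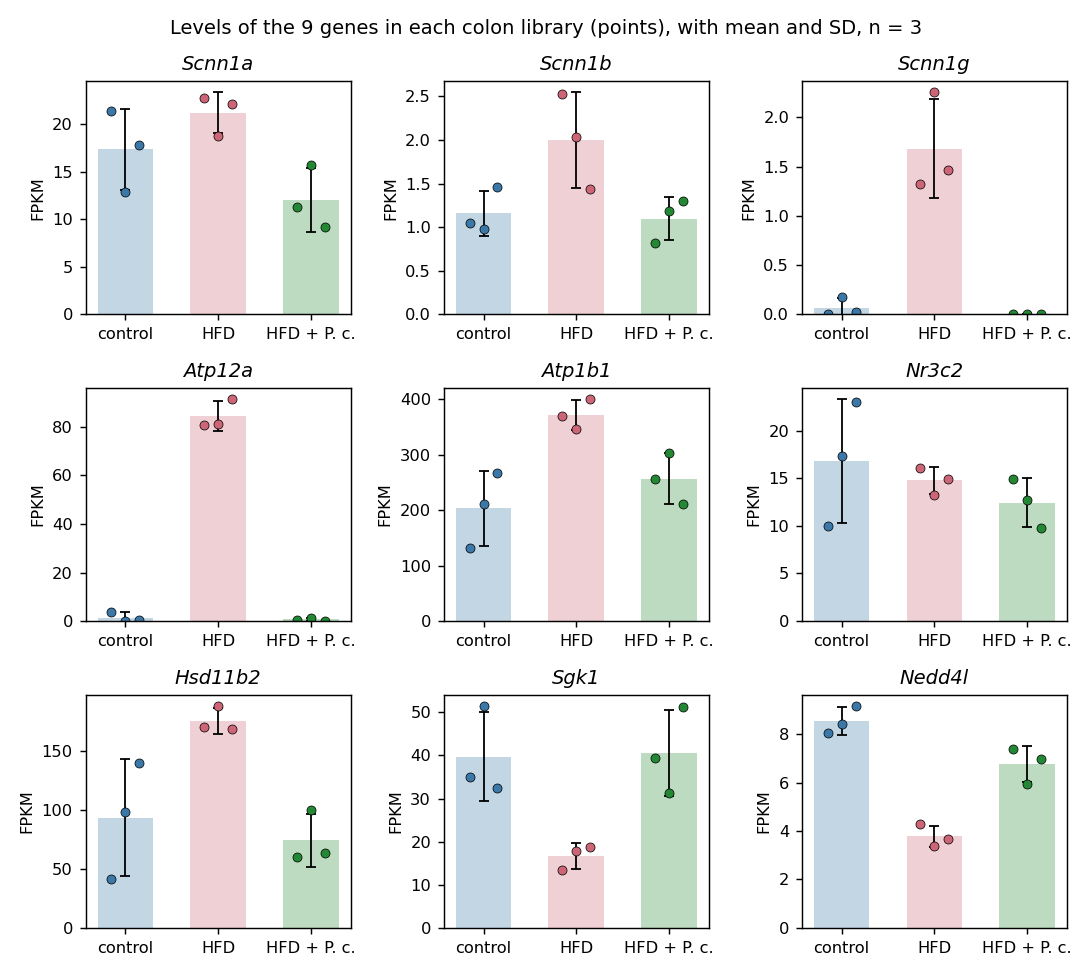
Level of each of the 9 genes in FPKM (vertical axes, starting at 0, a different scale in each panel) in the control, HFD and gavage (HFD + P. c.) groups. Bars are means, error bars SD and points the 3 libraries of a group; Atp12a, Scnn1g, Atp1b1 and Hsd11b2 are higher in all HFD libraries than in the other 6, and Sgk1 and Nedd4l are lower.

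Atp12a (ENSMUSG00000022229), the catalytic subunit of the colonic proton-potassium pump, showed the widest separation of the 9 genes. It was measured at 80.9, 81.1 and 91.5 FPKM in HFD. In the controls it was 3.94, 0.0821 and 0.428 FPKM, and in the gavage group 0.606, 1.28 and 0.198. The gap between HFD and the other 6 libraries exceeded the spread inside any group. The HFD mean of 84.5 ± 6.05 FPKM (SD, n = 3) was 57.0 times the control mean of 1.48 ± 2.13 and 121 times the gavage mean of 0.696 ± 0.549. On the log2(FPKM + 1) scale the differences were 5.44 (SE 0.50, interval 4.31 to 6.57) and -5.70 (SE 0.50). Control replicate 1 carried most of the control signal, and without it the first difference was 6.10. With a pseudocount of 0.1 FPKM the differences were 6.86 and -6.99.

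An antisense gene, Gm10873, shares 557 exonic bases with Atp12a on the opposite strand in GENCODE M21. It was listed at 0.828, 0.495 and 0.950 FPKM in HFD and at 0 to 0.0222 elsewhere, and since the sources used here do not say whether counting used strand, reads of the pair may not be separable.

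The genes whose profile over the 9 libraries lay nearest to that of Atp12a were Hoxb13, Hoxd13, Sval1, B3gnt7 and Thbs4. Likeness was measured as the root mean square distance between log2(FPKM + 1) profiles after each was centred on its own mean, where Atp12a itself varied by 2.69 around its mean. The distances were 0.446, 0.600, 0.624, 0.664 and 0.744. Hoxb13, a homeobox gene of the hindmost gut, was measured at 118, 128 and 134 FPKM in HFD, at 7.73, 0.0598 and 0.0898 in the controls and at 0.227, 2.15 and 0.0516 in the gavage group. Both genes were thus highest in control replicate 1 among the controls and in replicate 3 of the gavage group. As Hoxb13 was picked for the nearness of its profile, such likeness follows from the choice. Hoxd13, a homeobox gene from another cluster, ranged from 72.6 to 94.4 FPKM in HFD and from 0 to 0.450 in the other libraries.

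**Figure D2:**
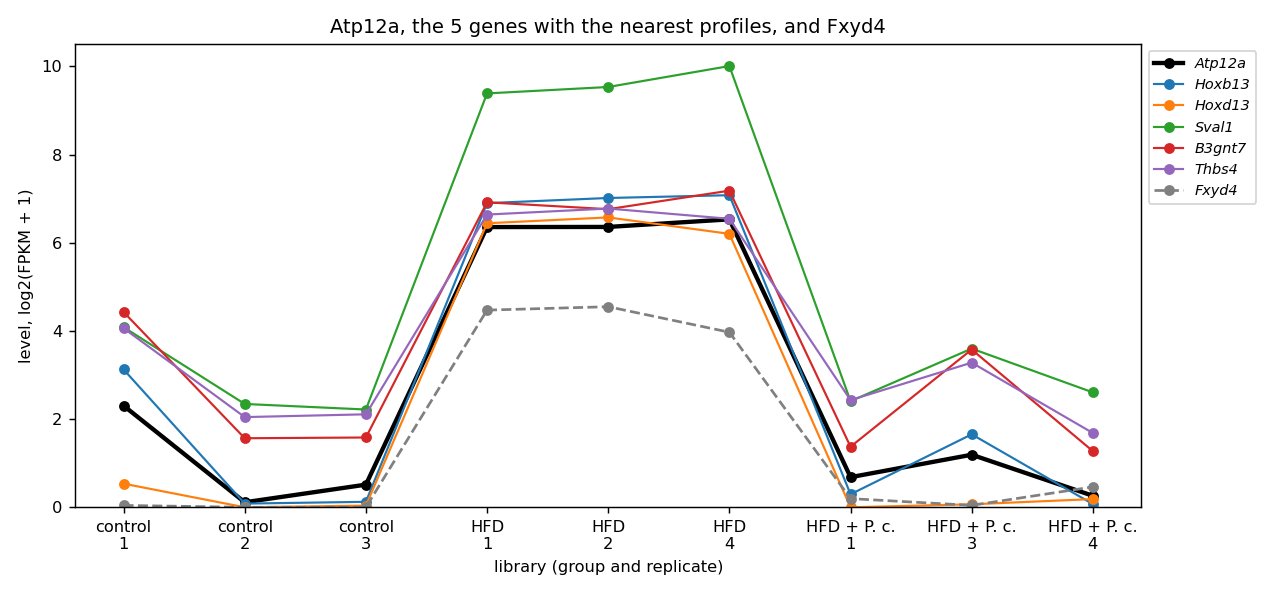
Level on the log2(FPKM + 1) scale (vertical axis) in each of the 9 libraries (horizontal axis, ordered by group) for Atp12a, its 5 nearest profiles and, dashed, the sodium pump regulator Fxyd4. Lines only join the libraries; all 7 genes are highest in the 3 HFD libraries, and most have a smaller rise in control replicate 1 and gavage replicate 3.

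The nearest profiles were found in the same way for the low channel subunits. For Scnn1b, which varied by 0.286 around its mean, they were Hk3, Ackr2, Polh, Il1rl2 and Dnmt1 at distances of 0.119 to 0.133. Dnmt1, the maintenance DNA methyltransferase, was at 7.602 to 8.79 FPKM in HFD and 4.52 to 7.13 elsewhere. For Scnn1g, which varied by 0.658, they were Fcgr1, Pik3ap1, Slfn8, Sp100 and Itgax at 0.119 to 0.136. Fcgr1, an immunoglobulin receptor of macrophages, was measured at 4.47, 7.95 and 4.04 FPKM in HFD and at 1.35 to 1.91 in the other 6 libraries, with HFD replicate 2 highest as for Scnn1g. These genes were picked for their nearness, so features shared with the subunits follow from that choice.

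Atp1b1 (ENSMUSG00000026576), the beta subunit that escorts the sodium pump to the basolateral membrane, was the most abundant of the 9 genes. It was measured at 132, 212 and 266 FPKM in the controls, at 370, 346 and 401 in HFD and at 256, 304 and 211 in the gavage group. All HFD libraries were above the other 6, and the gavage and control groups overlapped. The HFD mean of 372 ± 27.5 FPKM was 1.83 times the control mean of 203 ± 67.3 and 1.45 times the gavage mean of 257 ± 46.4 (SD, n = 3). The log2(FPKM + 1) differences were 0.92 (SE 0.26, interval 0.34 to 1.51) and -0.55 (SE 0.26, interval -1.13 to 0.04). The first was 0.64 without control replicate 1, the lowest library. Nme7 shares 575 exonic bases with Atp1b1 on the opposite strand, but its level was only 0.670 to 1.82 FPKM.

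The mineralocorticoid receptor Nr3c2 (ENSMUSG00000031618) was measured at 10.01, 17.3 and 23.0 FPKM in the controls, at 16.1, 13.3 and 14.9 in HFD and at 14.9, 12.7 and 9.73 in the gavage group. All 3 HFD values fell inside the control range, and the gavage group overlapped both. The HFD minus control difference was -0.11 on the log2(FPKM + 1) scale (SE 0.27), with an interval of -0.72 to 0.51, so differences of either sign within it are not excluded. Its sign turned with the scaling, to 0.16 with TPM scaling and 0.42 with pan-epithelial scaling. The gavage minus HFD difference was -0.24 (SE 0.27, interval -0.86 to 0.37).

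Hsd11b2 (ENSMUSG00000031891), the enzyme that keeps corticosterone from the receptor, was measured at 170.0, 188 and 169 FPKM in HFD. It was 41.6, 98.3 and 140 FPKM in the controls and 60.0, 100 and 63.1 in the gavage group. All HFD libraries lay above the other 6, while the controls spread more than 3-fold, with control replicate 1 lowest. The HFD mean of 176 ± 10.9 FPKM was 1.88 times the control mean of 93.4 ± 49.5 and 2.36 times the gavage mean of 74.5 ± 22.4 (SD, n = 3). The log2(FPKM + 1) differences were 1.07 (SE 0.40, interval 0.17 to 1.97) and -1.26 (SE 0.40, interval -2.16 to -0.37). Neither passed the adjusted threshold used for all genes, which these unadjusted intervals do not take into account. Without control replicate 1 the first was 0.58.

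The enzyme and its receptor therefore stood in a different proportion in HFD. The ratio of Hsd11b2 to Nr3c2 in FPKM was 4.15, 5.68 and 6.09 in the controls, 10.6, 14.2 and 11.3 in HFD, and 4.03, 7.91 and 6.49 in the gavage group. The HFD libraries did not overlap the other 6. The enzyme is made in epithelial cells and was also set against them: per 100 FPKM of the geometric mean of the 10 pan-epithelial genes, Hsd11b2 stood at 56.6, 55.4 and 56.3 in HFD and at 11.97 to 28.2 in the other libraries. That geometric mean was itself lower in HFD, at 314 ± 23.1 FPKM against 469 ± 115 in the controls and 334 ± 46.4 in the gavage group, with Krt20 and Vil1 among its genes, which raises every HFD value on this scale relative to control. Being lower in the gavage group than in the controls too, it raises the gavage values likewise. On the same footing Atp1b1 stood at 123, 102 and 134 in HFD, at 38.1 to 46.3 in the controls and at 70.0 to 85.4 in the gavage group, so that all 3 groups were apart on this scale. In FPKM the gavage and control groups overlapped for Atp1b1. Its gavage minus control difference was 0.378 in the main fit and 0.845 with pan-epithelial scaling. Neither passed the adjusted threshold used for all genes.

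Sgk1 (ENSMUSG00000019970), the kinase that aldosterone and glucocorticoids induce early, was low in HFD. It was measured at 13.3, 17.9 and 18.9 FPKM there, against 35.0, 51.5 and 32.5 in the controls and 39.4, 31.3 and 51.2 in the gavage group. All HFD libraries lay below the other 6, and the control and gavage groups covered nearly the same range. The control mean of 39.7 ± 10.3 FPKM was 2.38 times the HFD mean of 16.7 ± 2.97, and the gavage mean of 40.6 ± 9.97 was 2.43 times it (SD, n = 3). The log2(FPKM + 1) differences were -1.19 (SE 0.23) for HFD minus control and 1.22 (SE 0.23) for gavage minus HFD.

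RefSeq lists 6 starts for Sgk1 on chromosome 10, and the deposited level does not separate them. The stretches before the 2 most downstream starts are shown because they differ in the element through which corticosteroid receptors bind DNA. Each is the 250 bases before the start on the plus strand of GRCm38.p6, with capitals marking the half-site, the GC box and the TATA box as spelled above and the full element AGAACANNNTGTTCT, all on either strand.
The fifth start of Sgk1, chr10:21993640-21993889: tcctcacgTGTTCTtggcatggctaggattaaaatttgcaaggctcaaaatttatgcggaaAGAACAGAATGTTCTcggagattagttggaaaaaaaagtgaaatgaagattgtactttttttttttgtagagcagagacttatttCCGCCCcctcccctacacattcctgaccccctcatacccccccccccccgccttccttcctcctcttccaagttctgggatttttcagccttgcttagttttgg
The sixth start of Sgk1, chr10:21994416-21994665: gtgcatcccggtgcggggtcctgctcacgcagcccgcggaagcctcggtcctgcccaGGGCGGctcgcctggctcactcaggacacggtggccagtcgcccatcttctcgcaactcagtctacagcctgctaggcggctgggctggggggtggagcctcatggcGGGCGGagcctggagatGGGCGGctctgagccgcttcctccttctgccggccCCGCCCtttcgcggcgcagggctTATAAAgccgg
The fifth start has a full element, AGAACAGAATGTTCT, at 189 to 175 bases before it, made of 2 half-sites that are counted within it. A further half-site lies at 242 to 237 bases before the start, and a GC box at 104 to 99. The full element was found in 3 of 32851 windows, or 0.00913%. The sixth start has no half-site, 4 GC boxes and a TATA box at 11 to 6 bases before it. A match describes the letters in the window and not binding in these libraries.

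Nedd4l (ENSMUSG00000024589), the ligase that Sgk1 restrains, was also low in HFD, with less spread between libraries than Sgk1. It was measured at 4.27, 3.40 and 3.65 FPKM in HFD, at 8.04, 8.42 and 9.17 in the controls and at 7.39, 5.94 and 6.96 in the gavage group. No library of one group fell in the range of another. The control mean of 8.54 ± 0.577 FPKM was 2.26 times the HFD mean of 3.78 ± 0.451, and the gavage mean of 6.76 ± 0.745 was 1.79 times it (SD, n = 3). The log2(FPKM + 1) differences were -1.001 (SE 0.12) and 0.70 (SE 0.12). Since kinase and ligase were both low in HFD, their ratio overlapped between the groups, at 4.67 ± 1.31, 4.52 ± 1.22 and 5.99 ± 1.18 in control, HFD and gavage. A330084C13Rik, on the opposite strand, shares 277 exonic bases with Nedd4l and was listed at 0.0208 to 0.411 FPKM.

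The low levels of this pair in HFD depended partly on the scale. Per 100 FPKM of the pan-epithelial geometric mean, Sgk1 stood at 4.44 to 6.28 in HFD and at 5.65 to 10.6 in the controls, which overlap, and Nedd4l at 0.998 to 1.42 and 1.59 to 2.31, which do not. In the fit scaled this way, which moved the median gene up by 0.39, the differences were -0.65 and -0.53, neither passing the threshold applied to all genes; relative to that median they were -1.04 and -0.92.

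**Figure D3:**
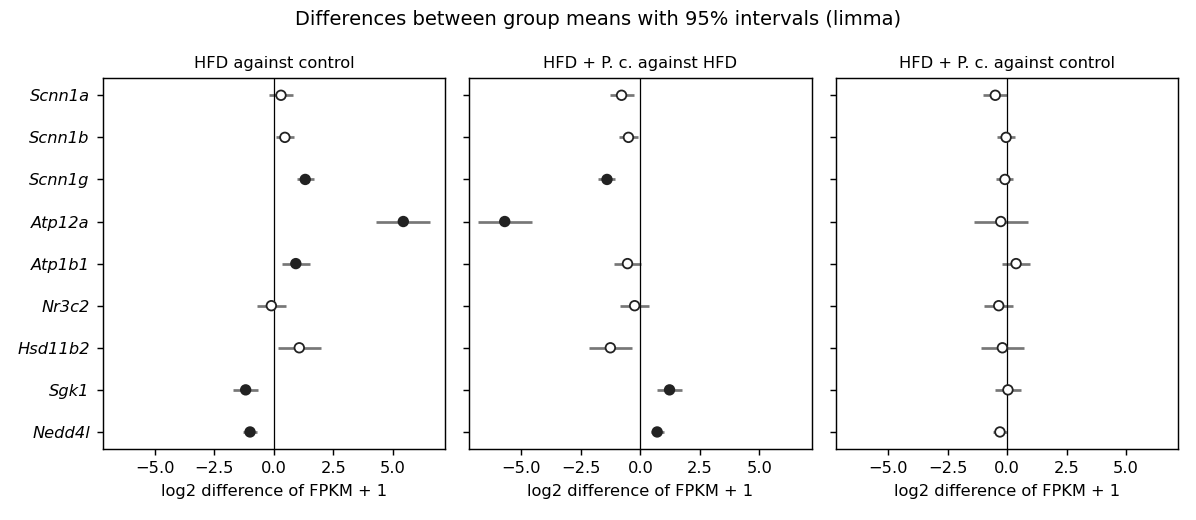
Difference between 2 groups on the log2(FPKM + 1) scale (horizontal axis) for the 9 genes, with 1 panel per comparison and 95% limma intervals. Filled points passed the adjusted p threshold of 0.05 over all 17907 genes tested. HFD minus control and gavage minus HFD share the HFD libraries and have opposite signs for 8 of the 9 genes, Nr3c2 being the exception. No point is filled for gavage minus control. Scnn1g is filled in both comparisons with HFD but had to differ.

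Counts over the 9 genes are set beside the same counts over all genes tested. A gene is called when its adjusted p in limma is under 0.05 over the 17907 genes that reached 0.5 FPKM in at least 3 libraries. Between HFD and control 3 of the 9 were called higher (Atp12a, Atp1b1 and Scnn1g) and 2 lower (Sgk1 and Nedd4l), where 10.6% of all genes were called higher and 9.11% lower. The groups did not overlap for 6 of the 9, 4 of them higher and 2 lower, against 42.1% of all genes in either direction. Both counts include Scnn1g, which met the filter only through the HFD libraries and therefore had to differ. The median difference was 0.46 over the 9 and -0.001 over all. Leaving out any 1 HFD library left 3 of the 9 called, partly because Scnn1g then no longer met the filter on low values; Atp1b1 also lost its call without control replicate 2 or gavage replicate 1.

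Between the gavage group and HFD 2 of the 9 were called higher (Sgk1 and Nedd4l) and 2 lower (Atp12a and Scnn1g). Among all genes 4.54% were called higher and 7.6% lower. The groups were apart for 8 of the 9, 2 higher and 6 lower, against 39% of all genes, with Nr3c2 the exception. Scnn1g, which had to differ, is again included in both counts. The median difference was -0.55 over the 9 and -0.014 over all. Without HFD replicate 1 only 2 of the 9 were called, Sgk1 then missing the threshold, and without control replicate 1 there were 6, with Scnn1a and Hsd11b2 added. Nedd4l missed the threshold with pan-epithelial scaling. As these genes were chosen with both contrasts known, nothing is read from either count.

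Between the gavage group and the controls none of the 9 genes was called by limma, nor in any of the alternative fits. Among all genes 0.262% were called higher and 0.843% lower. Nedd4l was the only one of the 9 whose groups were apart, where 21.7% of all genes had groups apart. Its difference was -0.30 (SE 0.12, interval -0.58 to -0.02), which turned to 0.11 with pan-epithelial scaling. The interval for Sgk1, whose difference was 0.04, ran from -0.50 to 0.57, and that for Scnn1a, at -0.50, from -1.003 to 0.01. Differences of that size are not excluded by 3 libraries a group.

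The tests below concern 86 other genes of the pathway in 7 lists, 72 of which met the filter. As the lists were chosen with earlier results known, adjusted p-values and calls below describe these libraries and are not independent evidence. Between HFD and control 6 rose and 14 fell in HFD, where 10.6% of all genes tested were called higher and 9.11% lower. The median was -0.10 over the 72 against -0.001 over all genes. Between the gavage group and HFD 8 rose and 6 fell, where 4.54% of all genes were called higher and 7.6% lower. The medians were -0.03 and -0.014. The same shares stand beside the counts of each list below, and nothing is read from those counts. The 20 calls of the first comparison dropped to 11, 12 and 10 without HFD replicate 1, 2 and 4 and to 12 without control replicate 2. The 14 calls of the second dropped to 6, 6 and 5 without those HFD replicates, to 9 without gavage replicate 1 or 4, and rose to 20 without control replicate 1. These counts include Fxyd4 and Asic4, which met the filter on low values only through the groups where they are high and therefore had to differ. Without that pair 5 of 70 rose and 13 fell in HFD, and 8 rose and 5 fell with gavage. Of these calls 7 of the 18 and 4 of the 13 were kept in every alternative fit, and they are marked as stable below.

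Among the other subunits and regulators of the sodium pump, 2 of 11 tested rose and 2 fell in HFD against control, and none rose and 2 fell in the gavage group against HFD, Fxyd4 being counted among the higher and the lower calls. Fxyd4, a regulator of the sodium pump also known as corticosteroid hormone-induced factor, was measured at 21.2, 22.4 and 14.7 FPKM in HFD, at 0.0301, 0 and 0 in the controls and at 0.146, 0.0307 and 0.378 in the gavage group. The HFD libraries did not overlap the rest, but like Scnn1g the gene met the filter only through them, so its levels are a description and no test is given. Fxyd5, a further pump regulator, was at 4.72 ± 0.760, 9.18 ± 1.62 and 4.12 ± 0.727 FPKM in control, HFD and gavage (rise 0.83, adjusted p = 0.011; difference -0.99 with gavage, adjusted p = 0.0066). Fxyd7 fell from 5.30 ± 2.39 to 1.53 ± 0.635 FPKM in HFD (-1.27, adjusted p = 0.018). That call was lost without HFD replicate 2 or 4 or control replicate 2, where adjusted p was 0.067, 0.059 and 0.052, and with pan-epithelial scaling.

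Of 8 tested genes for proteases that cleave and activate the channel and for the protease inhibitors Spint1 and Spint2, 1 rose and 1 fell in HFD, and none rose and 1 fell with gavage. Tmprss2, a membrane serine protease, was measured at 66.8, 75.4 and 72.1 FPKM in HFD, at 32.8, 17.7 and 18.4 in the controls and at 22.3, 25.5 and 16.9 in the gavage group. It rose by 1.65 (SE 0.24, adjusted p = 0.0022) and fell by 1.70 with gavage (SE 0.24, adjusted p = 0.0023), both stable. St14, which encodes matriptase, behaved otherwise: it was at 61.3 ± 2.69 FPKM in the controls and at 28.5 ± 4.62 and 30.1 ± 6.11 in HFD and gavage. It fell in HFD (-1.09, SE 0.18, adjusted p = 0.0039), a call lost with pan-epithelial scaling (adjusted p = 0.062). St14 did not pass between gavage and HFD (0.07, adjusted p = 0.84). Prss8, which encodes prostasin, was at 23.1 ± 0.611, 19.1 ± 1.18 and 15.1 ± 1.71 FPKM, with an HFD minus control difference of -0.26 (adjusted p = 0.14).

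In electroneutral sodium chloride absorption, of 7 tested genes 3 fell and none rose in HFD, and 3 rose and 1 fell with gavage. Slc9a3, the main apical sodium-proton exchanger of the gut, was measured at 76.3, 28.9 and 43.7 FPKM in the controls, at 4.17, 2.79 and 7.11 in HFD and at 55.6, 39.2 and 29.4 in the gavage group. It fell by 3.12 (SE 0.40, adjusted p = 0.0012) in HFD and rose by 2.92 with gavage (SE 0.40, adjusted p = 0.002), both stable. The ratio of Slc9a3 to Scnn1a in FPKM was 3.57, 2.25 and 2.45 in the controls, 0.183, 0.149 and 0.321 in HFD and 4.93, 2.50 and 3.22 in the gavage group. The exchanger thus outweighed the channel's alpha subunit in 6 libraries and was well below it in the 3 HFD libraries.

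Slc9a2, another apical exchanger, and Slc9a3r1, the scaffold that anchors Slc9a3, fell with it. Slc9a2 was at 79.2 ± 25.1, 24.6 ± 2.38 and 54.0 ± 8.42 FPKM in control, HFD and gavage, a fall of 1.60 (adjusted p = 0.0027, stable) and a rise of 1.10 with gavage (adjusted p = 0.019). The rise was lost without any 1 HFD library or gavage replicate 1 (adjusted p 0.057 to 0.088). Slc9a3r1 was at 344 ± 67.5, 121 ± 10.9 and 207 ± 46.4 FPKM and fell by 1.49 (adjusted p = 0.0017, stable). Slc26a3, the chloride-bicarbonate exchanger that works beside them, was at 73.3 ± 20.4, 97.3 ± 15.8 and 33.3 ± 16.1 FPKM. It did not pass in HFD (0.43, adjusted p = 0.47) and fell with gavage by 1.65 (adjusted p = 0.027), a call lost without HFD replicate 1, 2 or 4 (adjusted p 0.07 to 0.096).

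Of 14 potassium channels and cation-chloride cotransporters tested, 2 rose and 3 fell in HFD, and 2 rose and 1 fell with gavage. Kcne3, the partner of the basolateral potassium channel Kcnq1, was measured at 86.6, 114 and 115 FPKM in HFD, at 56.6, 38.9 and 39.3 in the controls and at 54.9, 72.6 and 62.1 in the gavage group. It rose by 1.22 (SE 0.19, adjusted p = 0.0035), a stable call, and fell with gavage by 0.72 (adjusted p = 0.044). The fall was lost without HFD replicate 1, 2 or 4, gavage replicate 1 or 4, or control replicate 2 or 3 (adjusted p 0.05 to 0.16). The leak channels Kcnk1 and Kcnk6 were at 29.3 ± 4.42 and 10.7 ± 1.03 FPKM in the controls, at 17.6 ± 2.72 and 6.43 ± 0.779 in HFD and at 29.4 ± 6.38 and 11.4 ± 3.32 in the gavage group. They passed in both comparisons with adjusted p of 0.033 to 0.047, and in neither without HFD replicate 1, 2 or 4 or without control replicate 2 (adjusted p 0.051 to 0.18). Kcnk1 also lost its HFD call without control replicate 3 and its gavage call without gavage replicate 3 or 4, and Kcnk6 its calls without control replicate 1 or 3 and gavage replicate 1 or 4.

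Of 16 corticosteroid receptors, enzymes and targets tested, 1 rose and 3 fell in HFD, and 2 rose and 1 fell with gavage. Ndrg2, an early aldosterone-induced gene, was measured at 52.1, 56.8 and 47.1 FPKM in HFD, at 30.1, 21.5 and 26.2 in the controls and at 17.8, 22.1 and 19.98 in the gavage group. It rose by 0.99 (SE 0.15, adjusted p = 0.003) and fell with gavage by 1.34 (SE 0.15, adjusted p = 0.00084), both stable. Cnksr3, a scaffold that joins Sgk1 and Nedd4l to the channel, was at 8.91 ± 1.55, 3.82 ± 0.699 and 7.79 ± 1.18 FPKM, a fall of 1.04 in HFD (adjusted p = 0.0037) and a rise of 0.87 with gavage (adjusted p = 0.011). The fall was lost with pan-epithelial scaling (adjusted p = 0.1). The rise was lost without HFD replicate 2 or 4, at adjusted p of 0.058 and 0.05, and also with pan-epithelial scaling. Fkbp5, a chaperone partner of the receptors and a glucocorticoid target, was at 12.8 ± 5.25, 4.45 ± 1.38 and 10.5 ± 1.76 FPKM (-1.30 in HFD, adjusted p = 0.014). That call was lost without HFD replicate 1 or 4, at adjusted p of 0.059 and 0.063.

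Kinases and ubiquitin ligases of channel retrieval yielded 1 call in 13 in either comparison, the same gene each time. Sgk2, a kinase of the same family as Sgk1, was measured at 35.2, 36.3 and 36.6 FPKM in the controls, at 7.81, 9.74 and 7.80 in HFD and at 31.8, 27.0 and 24.4 in the gavage group. It fell by 1.98 (SE 0.13, adjusted p = 6.5e-05) and rose by 1.60 with gavage (SE 0.13, adjusted p = 0.00018), both stable. All 3 groups were apart, as for Nedd4l. Of the acid-sensing channels, relatives of the sodium channel, 3 of 5 met the filter and 1, Asic4, was called lower in HFD. It met the filter only through the control and gavage libraries, where it was at 0.315 to 0.820 FPKM, and was at 0.0391 to 0.0838 in HFD, so no test is given.

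**Figure D4:**
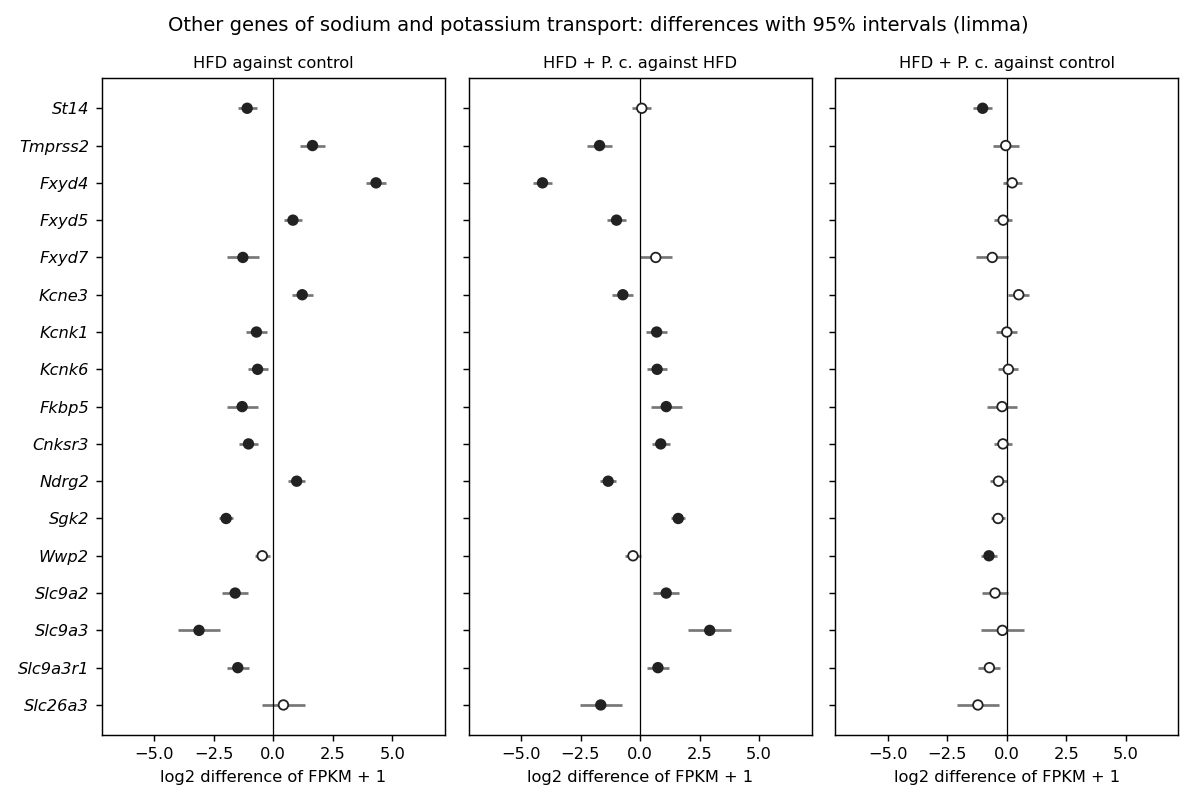
Difference on the log2(FPKM + 1) scale (horizontal axis) for the named genes of the pathway lists, with 1 panel per comparison and 95% limma intervals. Filled points passed an adjusted p of 0.05. Tmprss2, Ndrg2, Sgk2 and Slc9a3 are filled, and stable, in both comparisons that involve the HFD libraries. Fxyd5, Slc9a2, Slc9a3r1, Kcne3, Kcnk1, Kcnk6, Cnksr3 and Fkbp5 are also filled in both but are not stable in both. Fxyd4 is filled but had to differ, and St14 and Wwp2 are the filled points for gavage minus control.

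Between the gavage group and the controls 2 of the 72 pathway genes fell and none rose, where 0.843% of all genes were called lower and 0.262% higher. The median was -0.12 over the 72 against -0.01 over all genes. St14 was lower by 1.02 in the gavage group (difference -1.02, SE 0.18, adjusted p = 0.041). Wwp2, a ubiquitin ligase of the Nedd4 family, was at 19.3 ± 1.14, 13.8 ± 1.14 and 11.1 ± 2.13 FPKM in control, HFD and gavage, a difference of -0.76 from control (SE 0.14, adjusted p = 0.047). Neither call was stable: both were lost without control replicate 2 or 3, HFD replicate 1 or 2, or any gavage library, with adjusted p between 0.052 and 0.15, and Wwp2 also without HFD replicate 4. Without control replicate 1 the count was 8.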

How the data were processed

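Colon RNA was sequenced by the authors in 9 libraries, 3 per group. The deposited values are FPKM per gene, made by the authors from reads aligned with HISAT2 2.0.5 to GRCm39, per the submitters' processing notes. Counter, annotation and strand use were not given in the sources used here. FPKM is relative to each library's mapped total, so a few abundant transcripts can shift all others. Total depth is unknown. Of 54491 gene IDs, 52093 were matched to a symbol with GENCODE M21, a GRCm38 annotation used for names and overlaps alone.

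FPKM values were transformed to log2(FPKM + 1), 17907 genes that reached 0.5 FPKM in 3 or more libraries were kept, and limma 3.58.1 with a mean-variance trend (R 4.3.3) was fitted to all 9 libraries, with Benjamini-Hochberg adjustment over all genes of a comparison and a threshold of 0.05. The fit was tested on simulated data. The labels do not say that libraries are separate mice, so p-values measure the spread between these libraries. The 9 genes and all lists were chosen with earlier results of these data known. Named pathway genes are, for each list and comparison, at most 3 called genes with the smallest p and a mean of at least 1 FPKM over the libraries compared; genes outside this rule (Prss8, Asic4, and Slc26a3 in HFD against control) are given as context. The nearest 5 profiles were taken for Scnn1b, Scnn1g and Atp12a. Promoter sequences are from RefSeq (GRCm38.p6), matched for 5 of the 9 genes. Alternatives covered pseudocount, filter, scaling, trend, groups fitted, a replicate block and each library left out; scaling to pan-epithelial genes and removal of mitochondrial and immunoglobulin genes were chosen after seeing the data. Some genes of the lists are counted but not reported by name here.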

Additional observations from a re-analysis of the deposited data

How the results depend on the processing

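Over all alternatives, 473 recomputed differences of the 9 genes moved by less than 1 SD between libraries and 31 moved by more, and none that was called changed sign. The count of the 9 genes called in HFD against control ranged from 3 to 6 as single libraries were left out (main 5), that in gavage against HFD from 2 to 6 (main 4), and that in gavage against control stayed at 0. Over the other settings the first was 4 to 7 and the second 4 to 6. Pathway calls ranged from 10 to 22 (main 20), from 5 to 20 (main 14) and from 0 to 8 (main 2) with single libraries left out. In gavage against HFD they were 8 without a filter and 9 with pan-epithelial scaling. In gavage against control they were 1 in limma without a trend and 0 without a filter, with TPM scaling, quantile normalization, only the 2 groups compared, pan-epithelial scaling, or without mitochondrial and immunoglobulin genes. Deviations of same-numbered libraries from their group means correlated at -0.156 to 0.187 and those of other pairs at -0.168 to 0.155. These overlapping ranges show no pairing by replicate number but, with so few pairs, cannot exclude it. With a replicate block the pathway counts were 13, 7 and 0 and the counts over the 9 genes 5, 5 and 0, but for partly different genes: Atp1b1 was lost and Hsd11b2 added in HFD against control, and Nedd4l was lost and Scnn1a and Hsd11b2 added in gavage against HFD. Fxyd5 lost both its calls under the block (adjusted p 0.053 and 0.057). Of all genes called in HFD against control, 53.8% were higher, but 78.2% with TPM scaling, 91% with pan-epithelial scaling and 76.6% without mitochondrial and immunoglobulin genes, as these moved the median gene by 0.22, 0.39 and 0.17. In gavage against control 23.7% of calls were higher, against 88.2% with pan-epithelial scaling and 76.7% without those genes, and in gavage against HFD 37.4%, against 25% with TPM scaling. Each of these settings also changed the number of genes that met the filter. The causes were not tested. The limits are 3 libraries a group, an unknown depth, and values under about 1 FPKM, where the log2(FPKM + 1) scale understates differences.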
